A study of Mus musculus with 8 samples.

Results

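The aminoacyl-tRNA synthetases are described here in mouse muscle FAPs (fibro-adipogenic progenitors, stromal cells able to form fibroblasts and adipocytes) after melatonin or vehicle. The members were all protein-coding genes of GENCODE M21 whose symbol is 1 letter followed by ars, with or without a closing 1 or 2, together with Tarsl2, Eprs, Farsa, Farsb and the scaffold genes Aimp1, Aimp2 and Eef1e1. This rule used names only, and it found 41 of the 20781 genes in the table. They are 38 synthetases, of which 21 are cytosolic and 17 mitochondrial, and 3 scaffold genes. Tarsl2 and Aimp2 end in 2 but do not encode mitochondrial enzymes and were kept with the cytosolic enzymes and the scaffold.

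The melatonin group and the vehicle group had 4 libraries each, called biological replicates by the labels. All cells were labelled as FAPs. Their source was the uninjured tibialis anterior, gastrocnemius and quadriceps of wild-type male mice, of a strain the labels give as C57BL/6 or C57BL/6J. The cells were cultured for 48 h and then exposed to melatonin, the pineal hormone, or to vehicle for 24 h. No source used here gives the melatonin dose or the number of mice behind each library, and the extraction protocol names another muscle, longissimus dorsi.

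Each synthetase joins 1 amino acid to its tRNAs, using ATP, and so supplies the ribosome with charged tRNA. Mammalian cells charge tRNAs in the cytosol and, separately, in the mitochondrial matrix, where the products serve the few proteins encoded by the mitochondrial genome. Most mitochondrial enzymes have a gene of their own, while Kars and Gars each encode the cytosolic and the mitochondrial form of their enzyme, so their counts cover both. Part of the cytosolic enzymes sit in a multi-synthetase complex held together by scaffold proteins. Many cytosolic synthetase genes are known targets of ATF4, the transcription factor of the amino acid and integrated stress responses.

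After melatonin most called cytosolic synthetase mRNAs were lower, and the called mitochondrial synthetase mRNAs were all higher. Among the 21 cytosolic synthetases 12 fell, 1 rose and 8 did not pass the test, with a median log2 fold change of -0.22. Among the 17 mitochondrial synthetases 9 rose, none fell and 8 did not pass, with a median of 0.32. The test was edgeR's quasi-likelihood F-test on the 16565 genes that passed a filter on low counts, with Benjamini-Hochberg adjusted p under 0.05 as the threshold. No mitochondrial member was lower at an unadjusted p under 0.05 either, and DESeq2 and limma-voom also gave 0 lower. Over all genes DESeq2 called 15.8% higher and 17.1% lower, and limma-voom 17.9% higher and 18.8% lower. Over all genes tested 36.5% were called, 18.1% as higher and 18.5% as lower, against 61.9% of the cytosolic and 52.9% of the mitochondrial synthetases, and the median of all genes was 0.01. The changes were small: 3 of the 41 members passed 1.5-fold, among them Tarsl2 and Pars2. All 41 members passed the filter, with mean counts between 173 and 12294 per library.

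Without melatonin replicate 4, which stood apart from the other 3 melatonin libraries on the second principal component (-54.4 against 18.5 to 25.5), 13 cytosolic synthetases were lower, 1 was higher and 10 mitochondrial ones were higher (19.5% of all genes higher and 19.4% lower). With library totals in place of TMM factors, the median of all genes moved to 0.17, and 7 cytosolic synthetases were lower, 2 (Tarsl2 and Qars) were higher and 11 mitochondrial ones were higher (30.8% of all genes higher and 13.5% lower). The medians on that scale were -0.06 for the cytosolic and 0.48 for the mitochondrial synthetases. Since these are bulk libraries, fewer cells of a type and less RNA per cell cannot be told apart.

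**Figure D1:**
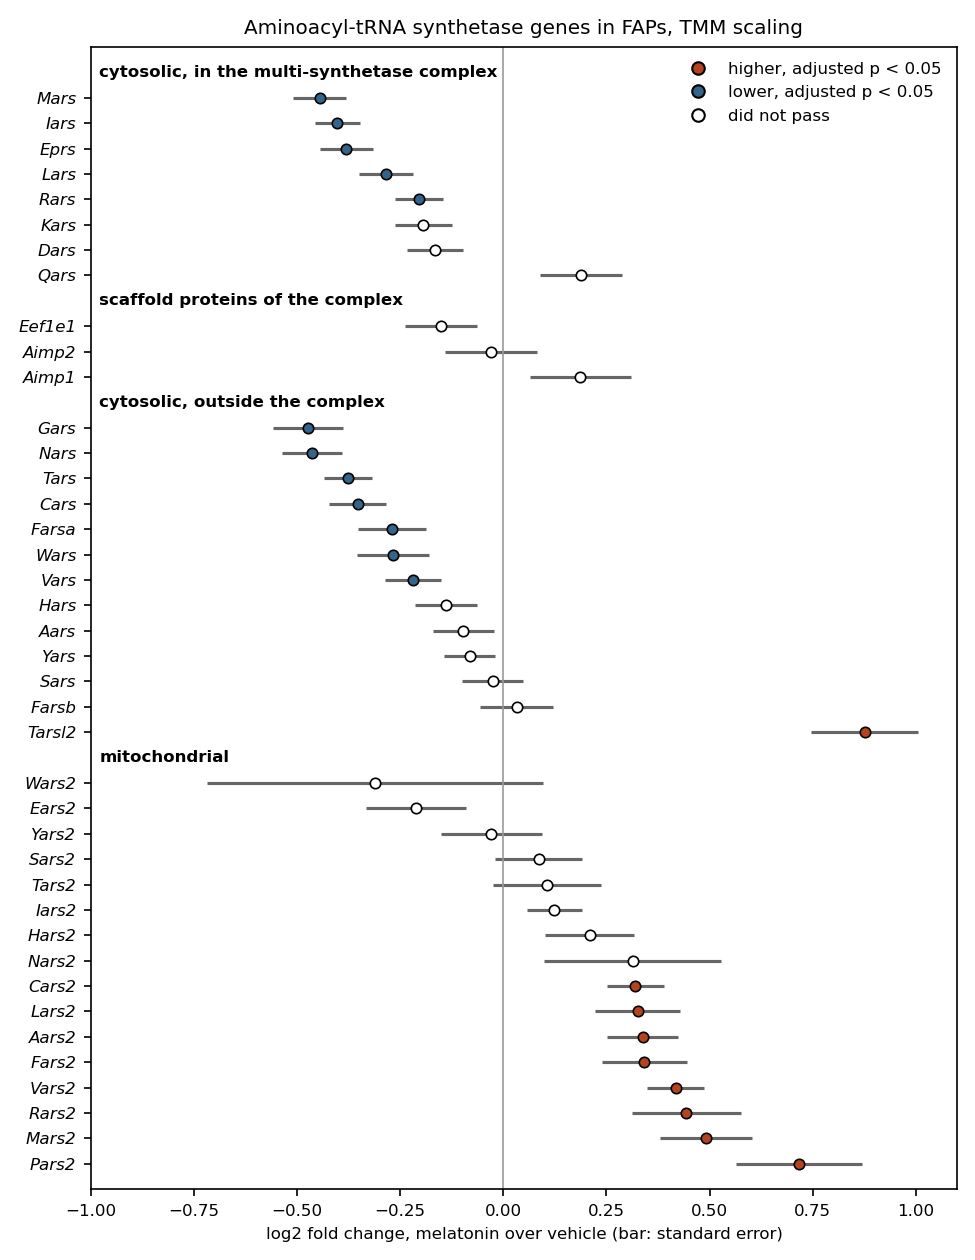
Log2 fold change of 40 of the genes, melatonin over vehicle, with its standard error (4 libraries per group), grouped by class and ordered within it; filled points passed an adjusted p of 0.05. The filled points of the cytosolic classes lie left of 0 except Tarsl2, and those of the mitochondrial class lie right of 0; with library totals in place of TMM factors Farsa, Lars, Rars, Vars and Wars lost their calls.

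Library totals were 35584931 to 49769873 counts with melatonin and 45682034 to 52401153 with vehicle. The first principal component held 55.1% of the variance and the second 14.4%. In CPM, the counts per 1000000 counts of a library after TMM scaling, the 7 FAP markers summed to 1081 to 1275 CPM with melatonin and 1971 to 2008 CPM with vehicle, and 4 adipocyte markers to 635 to 801 CPM with melatonin and 101 to 107 CPM with vehicle. Macrophage markers summed to 312 to 584 CPM with melatonin and 455 to 700.3 CPM with vehicle, endothelial markers to 45.1 to 54.2 CPM with melatonin and 29.5 to 36.0 CPM with vehicle and mural markers to 86.1 to 124 CPM with melatonin and 90.1 to 119.9 CPM with vehicle. The 3 myogenic markers with a row summed to 6.78 to 23.3 CPM with melatonin and 8.62 to 12.6 CPM with vehicle, and the single lymphocyte marker to 0.644 to 1.46 CPM with melatonin and 0.438 to 0.810 CPM with vehicle. Pax7, Myf5, Lep and 5 of 6 lymphocyte markers were not analysed here. In the endothelial list Tek was higher without overlap (30.8 to 39.0 CPM with melatonin and 14.9 to 18.2 CPM with vehicle), Vwf was lower without overlap (0.0536 to 0.929 CPM with melatonin and 1.797 to 3.45 CPM with vehicle), and Pecam1, Cdh5 and Kdr overlapped. In the mural list Rgs5 was lower and Kcnj8 higher without overlap, and Cspg4, Notch3 and Mcam overlapped. The FAP, adipocyte and endothelial sums did not overlap between the groups, and the other sums did. Of the FAP markers Ly6a, Dpp4 and Dcn were lower without overlap and the other 4 overlapped, and all 4 adipocyte markers were higher without overlap. The part of these markers in the synthetase changes was not tested.

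The members together took 0.226, 0.226, 0.226 and 0.246% of all counts in the melatonin libraries (replicates 1 to 4, as in all such lists), against 0.231, 0.238, 0.228 and 0.234% in the vehicle libraries. The groups overlapped in this share. Levels of different genes were compared as CPM per kilobase of transcript (CPM per kb). After ±, levels carry the SD over 4 libraries and fold changes their standard error. Summed over the 21 cytosolic synthetases, the level was 589, 584, 568 and 640.1 CPM per kb in the melatonin libraries, against 674, 719.6, 717 and 699 in the vehicle libraries. Every melatonin library was below every vehicle library on this scale. With library totals in place of TMM factors the groups overlapped, melatonin replicate 4 at 671 CPM per kb lying above 3 vehicle libraries (657 to 665) and below vehicle replicate 2 (681). Summed over the 17 mitochondrial synthetases, the level was 95.0, 96.4, 93.1 and 100.2 CPM per kb in the melatonin libraries, against 82.2, 81.5, 83.1 and 82.7 in the vehicle libraries, with every melatonin library above. These did not overlap with library totals either, at 99.7 to 105 CPM per kb in the melatonin libraries and 76.1 to 80.1 CPM per kb in the vehicle libraries. The mitochondrial sum was 16.1, 16.5, 16.4 and 15.7% of the cytosolic sum in the melatonin libraries, against 12.2, 11.3, 11.6 and 11.8% in the vehicle libraries. This ratio is taken within a library and does not depend on how libraries are scaled to each other.

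Cytosolic synthetases were more abundant than mitochondrial ones. The median level over both groups was 24.3 CPM per kb for the cytosolic enzymes and 5.24 CPM per kb for the mitochondrial ones. Tarsl2 was the lowest cytosolic gene at 1.26 CPM per kb, and the other 20 ran between 14.8 (Lars) and 68.8 CPM per kb (Gars). All 17 mitochondrial genes lay below those 20, from 0.696 (Mars2, whose annotated transcript is long) to 14.2 CPM per kb (Iars2). The 3 scaffold genes lay between 5.22 and 33.2 CPM per kb, inside the range of the cytosolic enzymes.

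In the multi-synthetase complex 5 of 8 enzymes fell, none rose and 3 did not pass. None was higher at an unadjusted p under 0.05 in edgeR, nor with DESeq2 or limma-voom. The median log2 fold change was -0.24. On the TMM scale 7 of the 8 had every melatonin library below every vehicle library, against 19.2% of all genes tested. With library totals in place of TMM factors Mars and Iars stayed apart, while Eprs, Lars, Rars, Kars and Dars overlapped. Largest in size was the change of Mars (ENSMUSG00000040354, chr10:127296221-127311786, minus strand), which loads methionine onto initiator and elongator tRNAs. Mars had 55.2, 51.2, 55.2 and 57.0 CPM in the melatonin libraries, against 70.0, 73.7, 79.1 and 74.9 CPM in the vehicle libraries. The groups were well apart, the highest melatonin library lying below the lowest vehicle library. Means were 54.7 ± 2.45 CPM with melatonin and 74.4 ± 3.75 CPM with vehicle (SD, n = 4 each), and Mars fell by 26.6% (log2 fold change -0.45 ± 0.064, adjusted p = 0.00047). Its gene overlaps Ddit3, which encodes the stress factor CHOP, by 68 bases on the opposite strand. Ddit3 itself rose (log2 fold change 0.51 ± 0.074, edgeR adjusted p = 0.00050), opposite to Mars, and no source used here states whether the counting used strand.

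Iars (ENSMUSG00000037851, chr13:49682100-49734267, plus strand), the isoleucine enzyme, had 61.6, 63.9, 65.2 and 62.8 CPM in the melatonin libraries, against 86.7, 80.6, 83.3 and 84.5 CPM in the vehicle libraries. The 4 melatonin libraries lay close together and all were below the vehicle libraries. Iars averaged 63.4 ± 1.53 CPM with melatonin and 83.8 ± 2.56 CPM with vehicle (SD, n = 4 each; log2 fold change -0.40 ± 0.055, adjusted p = 0.00035 by edgeR). Eprs (ENSMUSG00000026615, chr1:185363044-185428360, plus strand) encodes a fused enzyme that charges both glutamate and proline tRNAs. Eprs had 109, 108, 120.0 and 106 CPM in the melatonin libraries, against 149, 136, 141 and 151 CPM in the vehicle libraries. Its melatonin libraries too were all below its vehicle libraries, with means of 111 ± 6.41 CPM with melatonin and 144 ± 7.08 CPM with vehicle (SD, n = 4 each; log2 fold change -0.38 ± 0.065, adjusted p = 0.0013 by edgeR).

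Of the other complex enzymes, Lars, the leucine enzyme that also takes part in leucine sensing in human cells, averaged 53.0 ± 3.11 CPM with melatonin and 64.6 ± 2.75 CPM with vehicle (log2 fold change -0.28 ± 0.066, adjusted p = 0.0075 by edgeR). With library totals the Lars call was lost, at an adjusted p of 0.17. Rars, for arginine, fell (log2 fold change -0.20 ± 0.059, adjusted p = 0.021 by edgeR), and its adjusted p was 0.088 without melatonin replicate 1, 0.069 without melatonin replicate 3, 0.064 without vehicle replicate 2 and 0.56 with library totals. Kars (ENSMUSG00000031948, chr8:111993443-112011323, minus strand), the lysine enzyme of both compartments, had 121, 120.5, 107 and 117 CPM in the melatonin libraries, against 126, 135, 145 and 126 CPM in the vehicle libraries. On the TMM scale the groups did not overlap, yet Kars missed the threshold (log2 fold change -0.19 ± 0.070, adjusted p = 0.054 by edgeR). Kars passed the threshold with RLE in place of TMM factors at 0.049 or with a filter of 1 CPM at 0.037. Dars, for aspartate, also had no overlap between groups on the TMM scale and did not pass (log2 fold change -0.17 ± 0.068, adjusted p = 0.086 by edgeR). Without melatonin replicate 4 Dars was called at 0.020. Qars, for glutamine, was the complex enzyme with a positive value (log2 fold change 0.19 ± 0.10, adjusted p = 0.18 by edgeR), and with library totals it was called higher at 0.019.

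None of the 3 scaffold genes passed the test in either direction with edgeR, none reached an unadjusted p under 0.05, and none was called by DESeq2 or limma-voom. Their median log2 fold change was -0.03, and that value was 0.13 with library totals. Aimp1, whose product binds tRNA and is also secreted, had 32.6, 44.3, 34.8 and 47.6 CPM in the melatonin libraries, against 33.1, 38.2, 33.9 and 34.7 CPM in the vehicle libraries. Melatonin replicates 2 and 4 were above every vehicle library while replicate 1 was just below them and replicate 3 among them (log2 fold change 0.19 ± 0.12, adjusted p = 0.27 by edgeR). With library totals Aimp1 was called higher, at 0.34 on the log2 scale and an adjusted p of 0.041. Aimp2, the central scaffold of the complex, had 31.0, 30.3, 25.5 and 37.4 CPM in the melatonin libraries, against 30.5, 34.2, 32.5 and 29.7 CPM in the vehicle libraries. Its melatonin libraries spanned the whole range of its vehicle libraries (log2 fold change -0.03 ± 0.11, adjusted p = 0.86 by edgeR). Eef1e1, also called Aimp3, had 13.3, 12.5, 11.2 and 13.6 CPM in the melatonin libraries, against 13.3, 14.2, 14.1 and 14.5 CPM in the vehicle libraries. These groups overlapped as well (log2 fold change -0.15 ± 0.088, adjusted p = 0.21 by edgeR).

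Of the 13 cytosolic synthetases outside the complex 7 fell, 1 rose and 5 did not pass, with a median log2 fold change of -0.22. Gars (ENSMUSG00000029777, chr6:55038007-55079500, plus strand), the glycine enzyme of both compartments, had the highest level per kilobase of the synthetases as the mean over both groups; with melatonin alone Kars and Sars were at or just above it. Gars stood at 57.6 CPM per kb with melatonin and 79.9 CPM per kb with vehicle. Gars had 134, 127, 127 and 159 CPM in the melatonin libraries, against 180.5, 198, 201 and 181 CPM in the vehicle libraries. Melatonin replicate 4 was the highest of its group but still below every vehicle library. Means were 137 ± 15.2 CPM with melatonin and 190.3 ± 10.8 CPM with vehicle (SD, n = 4 each), and Gars fell by 27.9% (log2 fold change -0.47 ± 0.085, adjusted p = 0.0018 by edgeR).

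Nars (ENSMUSG00000024587, chr18:64499647-64516652, minus strand), for asparagine, had 146, 146, 142 and 171 CPM in the melatonin libraries, against 199.5, 216, 215 and 203 CPM in the vehicle libraries. As for Gars, melatonin replicate 4 stood above the other 3 and below the vehicle libraries (151 ± 13.2 CPM with melatonin and 208 ± 8.49 CPM with vehicle; SD, n = 4 each; log2 fold change -0.46 ± 0.073, adjusted p = 0.00081 by edgeR). Tars (ENSMUSG00000022241, chr15:11382301-11399665, minus strand), the main cytosolic threonine enzyme, had 85.9, 86.9, 80.5 and 88.2 CPM in the melatonin libraries, against 111, 117, 108 and 107 CPM in the vehicle libraries. The groups did not overlap (85.4 ± 3.38 CPM with melatonin and 111 ± 4.33 CPM with vehicle; SD, n = 4 each; log2 fold change -0.38 ± 0.058, adjusted p = 0.00072 by edgeR).

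Tarsl2 (ENSMUSG00000030515, chr7:65644898-65692091, plus strand), another cytosolic threonine enzyme, went the opposite way. Tarsl2 had 4.55, 4.94, 5.58 and 5.85 CPM in the melatonin libraries, against 3.18, 2.64, 2.67 and 2.89 CPM in the vehicle libraries. Every melatonin library was above every vehicle library, and the mean was 5.23 ± 0.592 CPM with melatonin and 2.84 ± 0.248 CPM with vehicle (SD, n = 4 each; log2 fold change 0.88 ± 0.13, adjusted p = 0.00055 by edgeR). Tarsl2 remained a minor transcript beside Tars, at 1.64 against 21.3 CPM per kb with melatonin and 0.891 against 27.7 CPM per kb with vehicle. Tarsl2 overlaps the more abundant Tm2d3 by 923 bases on the same strand. Tm2d3 also rose (log2 fold change 0.50 ± 0.10, edgeR adjusted p = 0.0039), and how reads in the shared stretch were assigned is not stated.

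Wars (ENSMUSG00000021266, chr12:108860030-108894174, minus strand), the tryptophan enzyme, is induced by interferon gamma in human cells. Wars had 45.6, 41.3, 38.1 and 36.0 CPM in the melatonin libraries, against 46.3, 46.0, 52.5 and 49.2 CPM in the vehicle libraries. On the TMM scale no melatonin library reached the lowest vehicle library, but melatonin replicate 1 came within 1 CPM of it. With library totals the groups overlapped. Wars averaged 40.3 ± 4.17 CPM with melatonin and 48.5 ± 3.04 CPM with vehicle (SD, n = 4 each, log2 fold change -0.27 ± 0.087, adjusted p = 0.036 by edgeR). The Wars call was lost without melatonin replicate 2, 3 or 4 and without vehicle replicate 1, 3 or 4, where the adjusted p was 0.093 without melatonin replicate 3 and 0.10 at most, and with library totals, where it was 0.31. Interferon gamma genes fell with it: 10 of the 16 tested from a list of 18 were lower (62.5%, beside 18.5% of all genes), none was higher, and their median was -1.27, beside 0.01 for all genes. Neither an unadjusted p under 0.05 nor DESeq2 or limma-voom gave a higher gene in that list. The immunoproteasome subunits Psmb8 (log2 fold change -1.42 ± 0.21, adjusted p = 0.00079) and Psmb10 (log2 fold change -1.05 ± 0.20, adjusted p = 0.0037) and the guanylate-binding protein Gbp2 (log2 fold change -1.56 ± 0.33, adjusted p = 0.0072) had the smallest p by edgeR. The count in that list was 6 without melatonin replicate 2 or without melatonin replicate 3. Macrophage marker sums, given above and made up mostly of Lyz2, overlapped between the groups. Csf1r was lower without overlap (9.52 to 20.9 CPM with melatonin and 24.5 to 34.5 CPM with vehicle). So was Ptprc (0.751 to 2.63 CPM with melatonin and 2.83 to 3.89 CPM with vehicle). Lyz2, Adgre1, Cd68, Cx3cr1 and Mrc1 overlapped. The part of macrophages in the fall of the interferon gamma list was not tested.

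Among the remaining free enzymes Cars, for cysteine, averaged 47.5 ± 1.88 CPM with melatonin and 60.6 ± 4.04 CPM with vehicle (log2 fold change -0.35 ± 0.068, adjusted p = 0.0028 by edgeR) and kept its call in the 8 fits that left out 1 library and in the 7 other fits. Farsa and Farsb encode the catalytic alpha and the beta subunit of the phenylalanine enzyme, yet only Farsa was called. The log2 fold change was -0.27 ± 0.083 for Farsa (edgeR adjusted p = 0.029) and 0.03 ± 0.089 for Farsb (edgeR adjusted p = 0.81); the difference between the subunits was not tested. The Farsa call was lost without melatonin replicate 1, 2 or 3 and without vehicle replicate 3 or 4, with adjusted p of 0.053 to 0.092, and with library totals, at 0.30. Vars, for valine, fell (log2 fold change -0.22 ± 0.068, adjusted p = 0.030 by edgeR), and its adjusted p was between 0.057 and 0.089 without melatonin replicate 1, 2 or 3 or without vehicle replicate 2, 3 or 4, and 0.47 with library totals.

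Hars, Aars, Yars and Sars, for histidine, alanine, tyrosine and serine, had log2 fold changes of -0.14, -0.10, -0.08 and -0.03 and did not pass. All 4 signs turned positive with library totals. Aars, which has the largest count of all members and overlaps Exosc6 on the same strand, was called lower without melatonin replicate 4, at an edgeR adjusted p of 0.039.

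**Figure D2:**
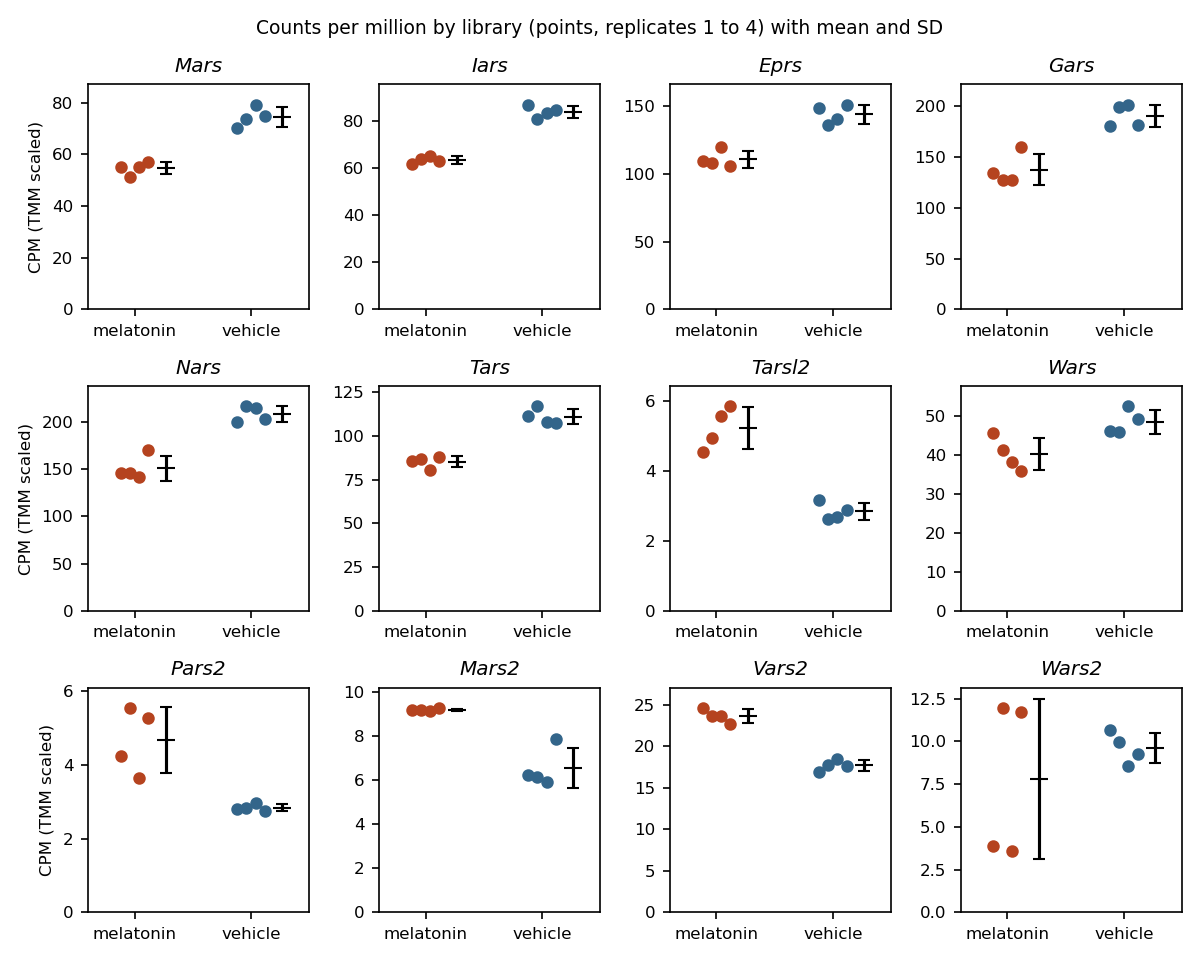
CPM (TMM scaled) in each library for 12 members, melatonin left and vehicle right in each panel, with mean and SD (n = 4 libraries per group). Mars, Iars, Eprs, Gars, Nars, Tars and Wars lie lower in the melatonin libraries and Tarsl2, Pars2, Mars2 and Vars2 higher, without overlap. With library totals in place of TMM factors, Eprs and Wars overlapped. The melatonin libraries of Wars2 fall at 3.62 and 3.89 or at 11.7 and 12.0 CPM.

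In the mitochondrial class 9 of 17 synthetases rose. On the TMM scale 8 of the 17 had every melatonin library above every vehicle library, against 18.5% of all genes tested. Pars2 (ENSMUSG00000043572, chr4:106651069-106655282, plus strand), the mitochondrial proline enzyme, had 4.24, 5.55, 3.64 and 5.28 CPM in the melatonin libraries, against 2.82, 2.82, 2.98 and 2.75 CPM in the vehicle libraries. The melatonin libraries were spread and the vehicle libraries close together, with no overlap (4.68 ± 0.895 CPM with melatonin and 2.84 ± 0.0988 CPM with vehicle; SD, n = 4 each; log2 fold change 0.72 ± 0.15, adjusted p = 0.0048 by edgeR).

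Mars2 (ENSMUSG00000046994, chr1:55237177-55248470, plus strand), which charges the single mitochondrial methionine tRNA, had 9.17, 9.17, 9.16 and 9.28 CPM in the melatonin libraries, against 6.21, 6.13, 5.92 and 7.88 CPM in the vehicle libraries. Vehicle replicate 4 was the highest of its group and still below every melatonin library (9.19 ± 0.0555 CPM with melatonin and 6.53 ± 0.904 CPM with vehicle; SD, n = 4 each; log2 fold change 0.49 ± 0.11, adjusted p = 0.0064 by edgeR). Vars2, for valine, had 24.6, 23.7, 23.6 and 22.7 CPM in the melatonin libraries, against 17.0, 17.8, 18.5 and 17.6 CPM in the vehicle libraries. Both groups were tight and did not overlap (log2 fold change 0.42 ± 0.069, adjusted p = 0.0011 by edgeR).

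Aars2, for alanine, averaged 22.0 CPM with melatonin and 17.4 CPM with vehicle (log2 fold change 0.34 ± 0.085, adjusted p = 0.012 by edgeR), and Cars2, for cysteine, averaged 21.6 ± 0.830 CPM with melatonin and 17.3 ± 0.441 CPM with vehicle (log2 fold change 0.32 ± 0.069, adjusted p = 0.0051 by edgeR). Cars2 overlaps Naxd by 984 bases on the opposite strand, and Naxd had a log2 fold change of 0.04 with an edgeR adjusted p of 0.68. Rars2, for arginine, averaged 12.7 ± 0.897 CPM with melatonin and 9.32 ± 1.58 CPM with vehicle (log2 fold change 0.44 ± 0.13, adjusted p = 0.024 by edgeR) and stayed called without any 1 library. Fars2, for phenylalanine, and Lars2, for leucine, lost their calls in some fits. Fars2 (log2 fold change 0.34 ± 0.10, adjusted p = 0.026 by edgeR) was the called mitochondrial gene whose groups overlapped, melatonin replicate 3 at 17.9 CPM lying below vehicle replicate 3 at 18.1 CPM. Its adjusted p was 0.053 without melatonin replicate 1, 0.071 without vehicle replicate 1, 0.053 without vehicle replicate 2 and 0.076 without vehicle replicate 4. Fars2 overlaps Lyrm4 by 115 bases and Nrn1 by 920 bases, both on the opposite strand. Lyrm4 was called higher (log2 fold change 0.43 ± 0.13, edgeR adjusted p = 0.025) and Nrn1 did not pass (0.06 ± 0.064, edgeR adjusted p = 0.54). Lars2 (log2 fold change 0.33 ± 0.10, adjusted p = 0.033 by edgeR) lost its call without melatonin replicate 1, 2 or 3 or vehicle replicate 1, 3 or 4, with adjusted p of 0.051 to 0.089.

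The 8 mitochondrial members that did not pass were Nars2, Hars2, Iars2, Tars2, Sars2, Yars2, Ears2 and Wars2. Nars2, Hars2, Iars2, Tars2 and Sars2 had log2 fold changes of 0.31, 0.21, 0.12, 0.11 and 0.09. Iars2 was called higher without melatonin replicate 4, at an edgeR adjusted p of 0.043. Yars2 had -0.03 ± 0.12 on the log2 scale and Ears2, for glutamate, -0.21 ± 0.12. Wars2 (ENSMUSG00000004233, chr3:99141068-99239186, plus strand), the mitochondrial tryptophan enzyme, was singled out after its values were seen. Wars2 had 3.89, 12.0, 3.62 and 11.7 CPM in the melatonin libraries, against 10.7, 9.97, 8.59 and 9.24 CPM in the vehicle libraries. Melatonin replicates 1 and 3 were below all vehicle libraries and replicates 2 and 4 above them all, so that its mean of 7.79 CPM with melatonin carried an SD of 4.66, against 9.62 ± 0.896 CPM with vehicle (n = 4 each; log2 fold change -0.31 ± 0.41, adjusted p = 0.59 by edgeR).

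For 16 amino acids a mitochondrial enzyme was set beside its cytosolic counterpart in the same library, with Eprs serving for both glutamate and proline and Farsa for phenylalanine. The level per kilobase of the mitochondrial mRNA, as a percentage of the cytosolic one, was higher in every melatonin library than in every vehicle library for 12 pairs, lower for none, and overlapped for 4 (glutamate, serine, tyrosine and tryptophan). These ratios reuse the levels of the same members and are a description without a test. No share over other gene pairs was computed to set beside these counts. In 7 pairs (cysteine, phenylalanine, leucine, methionine, proline, arginine and valine) the cytosolic gene was called lower and the mitochondrial gene higher.

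For proline, Pars2 stood at 8.68, 11.5, 6.79 and 11.2% of Eprs in the melatonin libraries, against 4.23, 4.66, 4.74 and 4.08% in the vehicle libraries. For methionine, Mars2 stood at 4.32, 4.66, 4.32 and 4.24% of Mars in the melatonin libraries, against 2.31, 2.16, 1.95 and 2.74% in the vehicle libraries. The separation in both pairs came with a fall of the cytosolic and a rise of the mitochondrial mRNA. Cars2 stood at 76.2, 76.3, 77.9 and 78.0% of Cars in the melatonin libraries, against 49.3, 47.0, 44.8 and 52.9% in the vehicle libraries. Iars2 stood at 105, 106, 106 and 94.8% of Iars in the melatonin libraries, against 70.4, 71.6, 69.6 and 74.7% in the vehicle libraries. The isoleucine pair was the one closest to equal levels, and there the cytosolic gene was called while the mitochondrial one was not.

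**Figure D3:**
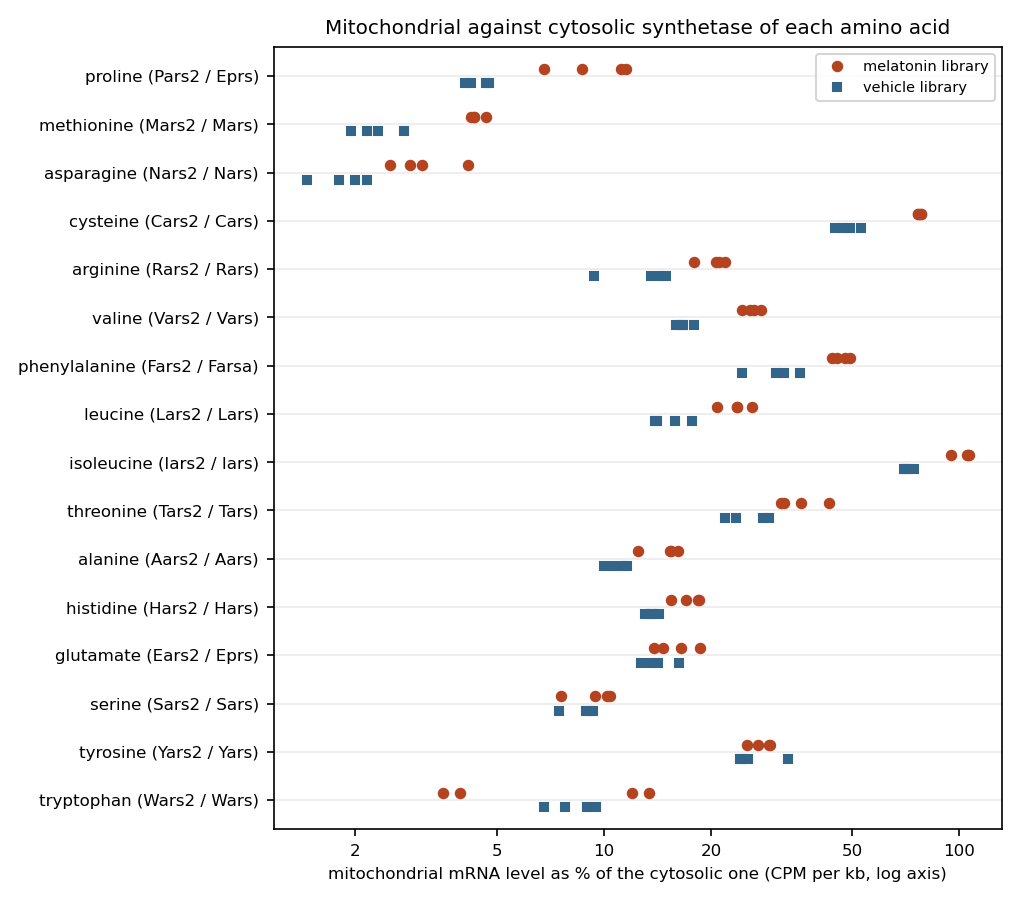
Level of the mitochondrial synthetase mRNA as a percentage of the cytosolic one for 16 amino acids (CPM per kb, log axis), 1 point per library, melatonin circles and vehicle squares. The 4 melatonin points lie right of all 4 vehicle points in 12 pairs; glutamate, serine, tyrosine and tryptophan overlap.

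The promoters are shown because ATF4 binds a composite C/EBP-ATF element at many cytosolic synthetase genes, with the core TGATGNAA. RefSeq windows on GRCm38.p6, from 250 bases before to 50 bases after the annotated start, were matched for 31 of the 41 members. Among those without a window are Cars, Hars, Hars2, Lars, Nars, Pars2, Rars, Vars and Wars. On either strand, the core was found in 5 of 14 cytosolic members (35.7%), in 0 of 14 mitochondrial members and in 0 of 3 scaffold genes, against 4.51% of the 27025 genes with a window. In the following windows, written 5′ to 3′ along the gene, capitals mark the core or its reverse complement.
Iars, chr13:49681880-49682179 on the plus strand: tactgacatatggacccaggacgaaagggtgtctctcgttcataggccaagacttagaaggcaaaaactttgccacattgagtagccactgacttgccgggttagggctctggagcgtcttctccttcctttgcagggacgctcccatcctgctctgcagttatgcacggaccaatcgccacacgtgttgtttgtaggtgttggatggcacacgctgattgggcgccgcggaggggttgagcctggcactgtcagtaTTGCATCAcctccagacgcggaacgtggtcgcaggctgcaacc
Gars, chr6:55037751-55038050 on the plus strand: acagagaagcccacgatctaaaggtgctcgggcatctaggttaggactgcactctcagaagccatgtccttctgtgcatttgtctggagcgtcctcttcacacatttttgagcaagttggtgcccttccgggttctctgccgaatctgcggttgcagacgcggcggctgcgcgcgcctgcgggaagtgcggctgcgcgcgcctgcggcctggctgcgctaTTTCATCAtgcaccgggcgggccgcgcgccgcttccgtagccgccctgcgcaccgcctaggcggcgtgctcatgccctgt
Tars, chr15:11399609-11399908 on the minus strand: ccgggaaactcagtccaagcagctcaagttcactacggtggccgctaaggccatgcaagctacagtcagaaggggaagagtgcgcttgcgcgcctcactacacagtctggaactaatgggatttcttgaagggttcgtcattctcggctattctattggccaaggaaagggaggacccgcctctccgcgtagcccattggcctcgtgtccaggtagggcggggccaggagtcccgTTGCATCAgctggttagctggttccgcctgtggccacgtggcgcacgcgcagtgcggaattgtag
Aars, chr8:111033592-111033891 on the plus strand: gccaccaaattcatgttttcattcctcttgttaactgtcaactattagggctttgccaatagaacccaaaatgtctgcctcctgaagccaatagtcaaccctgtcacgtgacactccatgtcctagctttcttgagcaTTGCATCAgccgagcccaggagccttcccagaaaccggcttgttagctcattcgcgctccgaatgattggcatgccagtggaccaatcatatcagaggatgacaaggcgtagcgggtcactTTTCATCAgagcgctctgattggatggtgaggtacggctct
Yars, chr4:129189653-129189952 on the plus strand: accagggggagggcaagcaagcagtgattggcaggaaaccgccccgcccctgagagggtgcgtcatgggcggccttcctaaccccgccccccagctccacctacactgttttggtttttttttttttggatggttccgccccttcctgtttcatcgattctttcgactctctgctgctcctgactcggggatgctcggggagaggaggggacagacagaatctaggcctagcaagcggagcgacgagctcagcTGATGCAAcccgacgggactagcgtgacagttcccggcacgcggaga
Vars2, chr17:35667543-35667842 on the minus strand, a mitochondrial gene without the core: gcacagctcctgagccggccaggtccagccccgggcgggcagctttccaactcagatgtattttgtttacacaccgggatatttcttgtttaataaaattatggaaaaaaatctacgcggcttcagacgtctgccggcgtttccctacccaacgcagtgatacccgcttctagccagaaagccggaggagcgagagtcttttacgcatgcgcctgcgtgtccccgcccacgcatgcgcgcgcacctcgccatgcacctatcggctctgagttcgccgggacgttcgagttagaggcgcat

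Gars and Tars had the match upstream of the start, at 30 and 15 bases, in reverse orientation. In Iars the match began at base 8 and in Yars at base 4 of the transcript, and Aars had a match 112 bases upstream and another from base 10. Of these 5 genes Iars, Gars and Tars fell, by 0.40, 0.47 and 0.38 on the log2 scale, while Aars and Yars did not pass (-0.10 and -0.08). Mars and Eprs fell without the core in their window, and Aars has the core at 2 positions without passing the test. The ETS core CCGGAAG, also searched on both strands, was in 5 of 14 cytosolic, 4 of 14 mitochondrial and 2 of 3 scaffold members, and in 9.93% of all genes with a window. A match describes these letters only, and nothing about binding follows from its presence or absence.

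Genes around the charging step were read from 9 lists. The list of 26 ATF4 targets outside the synthetases includes Atf4 itself. Of these 26 genes 9 fell (34.6%) and 3 rose (11.5%), beside 18.5% of all genes lower and 18.1% higher, with a median log2 fold change of -0.18. Atf4 averaged 206 ± 16.2 CPM with melatonin and 211 ± 8.51 CPM with vehicle (log2 fold change -0.03 ± 0.070, adjusted p = 0.77 by edgeR). Slc7a11, the cystine importer, averaged 10.01 ± 1.42 CPM with melatonin and 29.7 ± 2.66 CPM with vehicle (log2 fold change -1.57 ± 0.12, adjusted p = 9.0e-06 by edgeR), and the cationic amino acid carrier Slc7a1 averaged 20.9 ± 0.631 CPM with melatonin and 36.8 ± 0.798 CPM with vehicle (log2 fold change -0.82 ± 0.063, adjusted p = 9.8e-06 by edgeR). The glutamine carrier Slc1a5 went the other way, at 262 ± 12.7 CPM with melatonin and 126 ± 12.5 CPM with vehicle (log2 fold change 1.05 ± 0.081, adjusted p = 9.6e-06 by edgeR). With library totals 5 ATF4 targets were lower (19.2%) and 4 higher (15.4%), beside 13.5% and 30.8% of all genes. The list of eIF2, eIF2B and their regulators had 4 lower (25.0%) and 2 higher (12.5%) of 16, with a median of -0.08. Impact, an inhibitor of the kinase Gcn2, rose (log2 fold change 0.42 ± 0.057, adjusted p = 0.00034 by edgeR), as did the eIF2B subunit Eif2b1 (0.33), and the eIF2 subunit Eif2s2 fell (-0.28). The number of lower genes in the eIF2 list was 0 with library totals, 1 without melatonin replicate 1, 2 or 3 or vehicle replicate 4, and 2 without vehicle replicate 1 or 3.

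On the mitochondrial side, 8 of 25 genes that modify mitochondrial tRNAs or translate with them rose (32.0%) and none fell, with a median of 0.19, beside 18.1% of all genes higher and 18.5% lower. None of that list was lower at an unadjusted p under 0.05 in edgeR, nor with DESeq2 or limma-voom. Gtpbp3, which modifies the wobble base of mitochondrial tRNAs, averaged 37.5 ± 0.962 CPM with melatonin and 26.4 ± 1.88 CPM with vehicle (log2 fold change 0.51 ± 0.071, adjusted p = 0.00041 by edgeR). Gatc, a subunit of the amidotransferase that completes glutamine tRNA in mitochondria after Ears2 has loaded glutamate, averaged 18.9 ± 2.29 CPM with melatonin and 12.6 ± 0.806 CPM with vehicle (log2 fold change 0.58 ± 0.10, adjusted p = 0.0016 by edgeR). Of its partner subunits Gatb was called higher (0.43) and Qrsl1 did not pass (0.12). Lrpprc, which stabilises mitochondrial mRNAs, rose as well (log2 fold change 0.36 ± 0.072, adjusted p = 0.0031 by edgeR). With library totals 17 genes of this list were higher (68.0%), beside 30.8% of all genes on that scale.

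All 13 protein-coding genes of the mitochondrial genome rose, with a median of 0.80, and none was lower at an unadjusted p under 0.05 or with DESeq2 or limma-voom. The complex I subunit mt-Nd2 averaged 1067 ± 83.9 CPM with melatonin and 486 ± 32.9 CPM with vehicle (log2 fold change 1.13 ± 0.078, adjusted p = 5.2e-06 by edgeR), and mt-Nd1 and mt-Nd4 had 0.89 and 0.92. These genes took 2.03 to 2.38% of all counts in the melatonin libraries, against 1.02 to 1.27% in the vehicle libraries, without overlap. The part of mitochondrial RNA content in the rise of the nuclear mitochondrial synthetases was not tested.

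The list of 22 RNA polymerase III genes held subunits and factors of the enzyme, which makes the tRNAs, and its repressor Maf1. In it 4 rose (18.2%) and 1 fell (4.55%), beside 18.1% and 18.5% of all genes, with a median of 0.05. Maf1 was among those that rose (log2 fold change 0.52 ± 0.14, adjusted p = 0.018 by edgeR). Polr3gl, Polr3e and Gtf3c1 were the called genes with the smallest p, at 0.47, 0.32 and 0.29. With library totals, where 30.8% of all genes were higher and 13.5% lower, 9 of that list were higher (40.9%) and 0 lower, and 2 were lower without melatonin replicate 3, without vehicle replicate 4 or by DESeq2. Of 26 genes for tRNA processing, export and quality control 4 rose (15.4%) and 3 fell (11.5%), with a median of 0.08. The tRNA methyltransferase Nsun2 (log2 fold change -0.51 ± 0.059, adjusted p = 0.00012 by edgeR) and the tRNA exporter Xpot (log2 fold change -0.35 ± 0.057, adjusted p = 0.00095 by edgeR) fell. Dtd2 rose (log2 fold change 0.44 ± 0.093, adjusted p = 0.0045 by edgeR). In that list 10 were higher with library totals (38.5%), and 5 were lower without melatonin replicate 4. Of 9 cytosolic elongation genes 3 rose (33.3%) and 2 fell (22.2%), with a median of 0.05. Eef1a2, the muscle and neuron form of the factor that carries charged tRNA to the ribosome, fell (log2 fold change -1.12 ± 0.13, adjusted p = 0.00016 by edgeR), as did Eif5a (-0.38), and the kinase Eef2k rose (0.39). With library totals 1 elongation gene was lower (11.1%). Of 8 selenocysteine genes 2 rose (25.0%) and 1 fell (12.5%), with a median of 0.18. The dedicated elongation factor Eefsec (log2 fold change 0.77 ± 0.083, adjusted p = 8.4e-05 by edgeR) and the kinase Pstk (0.52) rose, and Secisbp2l fell (-0.44). In the selenocysteine list 4 were higher with library totals and 1 without vehicle replicate 2 or 3, and 2 were lower without melatonin replicate 2 or without vehicle replicate 2.

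**Figure D4:**
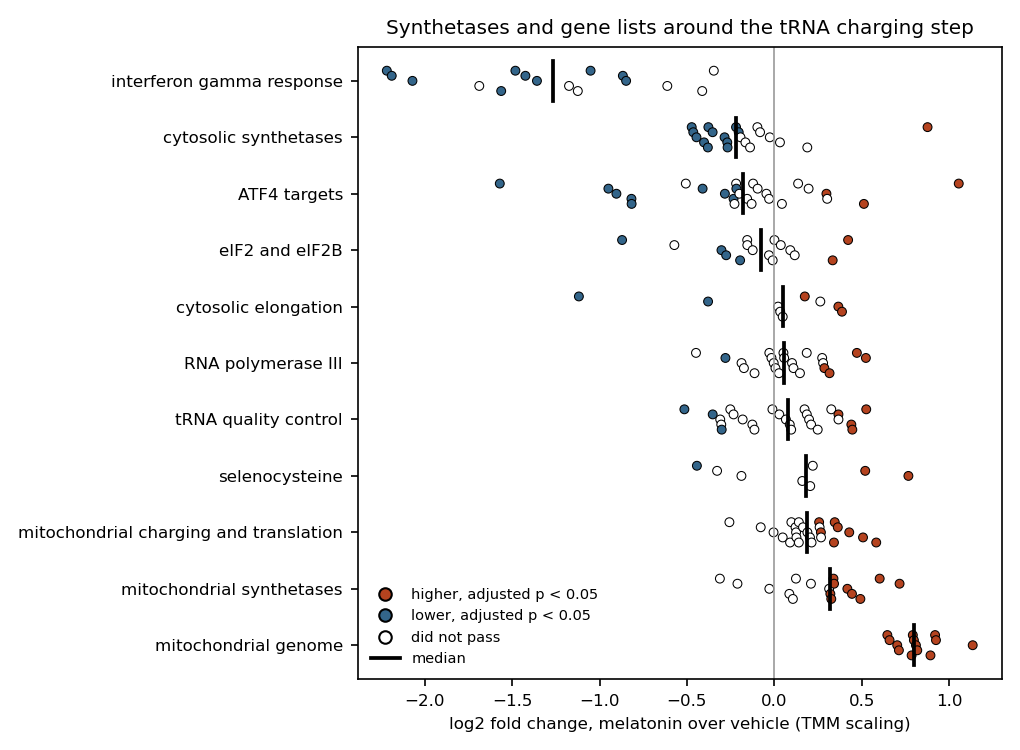
Log2 fold change of each tested gene, melatonin over vehicle, for the cytosolic and mitochondrial synthetases and 9 related lists, with a bar at each median; filled points passed an adjusted p of 0.05 by edgeR. Medians ran between -1.27 for the interferon gamma list and 0.80 for the mitochondrial genome, with the cytosolic synthetases at -0.22 and the mitochondrial ones at 0.32, which were -0.06 and 0.48 with library totals.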

How the data were processed

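RNA-seq libraries of 4 melatonin and 4 vehicle cultures were analysed. The authors deposited 1 table of counts, 20781 Ensembl genes by 8 libraries, of which no column was left unused; the columns prefixed as control were read as vehicle. Each row of the deposited counts sums to at least 11, so rarer genes are absent from these results. The build was mm10, per the submitters' processing notes, which list HISAT2 2.0, StringTie 1.3.3b, bedtools 2.26.0, Trimmomatic 0.36, FastQC 0.11.2 and DESeq2 1.12.4. No source used here states the counting program, its annotation or its use of strand. Reads from overlapping genes or paralogs may therefore be assigned in ways the table does not show: 14 members overlap a gene with a mean count of at least 20, 2 of them on the same strand.

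Symbols, positions and transcript lengths (longest principal protein-coding transcript) came from GENCODE M21 (GRCm38, that is mm10), where 20720 gene IDs were found and 61 were not. Genes were filtered with filterByExpr, libraries scaled with TMM factors and groups compared over all genes with edgeR 4.0.16 (R 4.3.3) by its quasi-likelihood F-test (robust; group alone in the model), with Benjamini-Hochberg adjustment at 0.05. The scripts were tested on simulated data. Alternatives were DESeq2 1.42.0, limma-voom 3.58.1, RLE factors, library totals, other filters, a replicate block and leaving out each library. Library totals were 35584931 to 52401153 counts, and no member had a count of 0 in any library. Within groups, libraries differed by more than sampling noise.

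1 member is not reported singly here. Values by library are given for the scaffold genes, for those reported of the 3 called members with the largest change in each direction and enzyme class, and for Wars, Kars, Gars and Tarsl2; from each related list the 3 called genes with the smallest p are named. Genes named beyond this rule (Vars2, Wars2, Atf4, Ddit3, Maf1 and overlapping or partner genes) were chosen after values were seen. The members and lists were chosen with earlier results of these data known.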

Additional observations from a re-analysis of the deposited data

Results flagged for a closer look

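In 5 of the 82 sets formed by a member and a group, 1 library lay far from the other 3, by a gap above the 95% critical value of Dixon's test. Chance alone flags about 1 in 20 such sets. Hars was at 71.3 CPM in melatonin replicate 4, against 62.0 to 62.9 CPM in the other melatonin libraries. Nars was at 171 CPM in melatonin replicate 4, against 142 to 146 CPM in the others. Yars was at 74.4 CPM in vehicle replicate 2, against 68.1 to 68.8 CPM in the other vehicle libraries. Mars2 was at 9.28 CPM in melatonin replicate 4, beside 9.16 to 9.17 CPM in the others, a gap of little size, and at 7.88 CPM in vehicle replicate 4, against 5.92 to 6.21 CPM in the other vehicle libraries. The Nars and Mars2 calls held without each of these libraries.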

How the results depend on the processing

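Of the 22 called members, 16 stayed called in all 8 fits that left out 1 library, and 15 also in the 7 other fits; the losses on leaving out a library or with library totals are given with their values above. Leaving out 1 library, all genes called ran between 5098 and 6566, cytosolic synthetases lower between 8 and 13, and mitochondrial synthetases higher between 7 and 10. With library totals, 5100 genes were higher over all genes (69.5% of the called genes, against 49.4% with TMM factors). On that scale 2 cytosolic synthetases were higher and 7 lower, and 1 scaffold gene was called. Signs reversed with library totals for Aars (0.0596), Aimp2 (0.126), Eef1e1 (0.00629), Hars (0.0197), Sars (0.131), Yars (0.0751) and Yars2 (0.125), none of which was called on either scale. Leaving out 1 library, log2 fold changes that reversed in some fit ran between -0.122 and 0.0675 for Aimp2, -0.0323 and 0.0830 for Farsb, -0.0718 and 0.0197 for Sars, -0.00582 and 0.193 for Tars2 and -0.0846 and 0.0719 for Yars2, none of them called. The cause of these changes was not tested. RLE factors or a 1 CPM filter gave 13 lower cytosolic synthetases, and without Kars and Gars 11 were lower. Counting every symbol that ends in 2 as mitochondrial gave 10 higher.

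The labels do not say whether same-numbered libraries were paired. Same-numbered libraries had correlations of 0.04, -0.05, -0.03 and 0.004 between their deviations from the group means. No library correlated best with the library of its own number in the other group. No effect shared by replicate number was visible in these values, which cannot decide whether the cultures were paired. A replicate block gave 4942 called genes, 9 lower cytosolic and 7 higher mitochondrial synthetases, 17 called members (lost were Rars at an adjusted p of 0.072, Vars at 0.082, Wars at 0.086, Fars2 at 0.084 and Lars2 at 0.079), 2 lower genes in the eIF2 list and 4 higher in the mitochondrial charging list. The 4 libraries per group limit the precision of small changes.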

Other observations

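Wars2 was widely spread inside the melatonin group, at 12.0 and 11.7 CPM in melatonin replicates 2 and 4 but 3.89 and 3.62 CPM in melatonin replicates 1 and 3. Pars2 and Aimp1 were also higher in replicates 2 and 4 than in 1 and 3, with 5.55 and 5.28 CPM of Pars2 and 44.3 and 47.6 CPM of Aimp1 in replicates 2 and 4, against 4.24 and 3.64 CPM of Pars2 and 32.6 and 34.8 CPM of Aimp1 in replicates 1 and 3. Replicates 2 and 4 are also the melatonin libraries with the smaller totals, 40330511 and 35584931 counts, beside 49202762 and 49769873 in replicates 1 and 3. These were noticed after the values were seen, and the cause was not tested.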
